A study of Mus musculus with 8 samples.

Results

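The Notch receptors *Notch1*, *Notch2*, *Notch3* and *Notch4*, their ligands *Dll1*, *Dll4*, *Jag1* and *Jag2*, and *Rbpj*, the DNA-binding partner of the cleaved receptor, were read in 8 single endocardium cells of mouse embryos. Endocardium is the endothelium that lines the heart. Their probes were found by gene name, as every non-control probe named for one of these genes, which gave 12 probes for 9 of the 35560 genes on the array. The 4 WT cells carried floxed *Sox17* on both alleles (*Sox17* flox/flox) with wild-type *Mesp1* (*Mesp1*+/+). The 4 *Sox17* KO cells had the same floxed alleles together with Mesp1Cre/+, which expresses Cre recombinase from the *Mesp1* locus in early mesoderm, so that deletion was not limited to endocardium. SOX17 is a SoxF transcription factor of endothelium and endoderm. The embryos were at E8.5 and had 9 somites. The heart tube is the labelled source, and the methods name the ventricle and PCR of marker genes to identify each cell. Each cell's cDNA was amplified and hybridized to 1 one-colour Agilent array. Which embryo gave which cell is not stated, so a genotype counted as 1 sample, and no test was made. An SD given beside a difference is the SD between cells, pooled over genotypes.

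Notch receptors are cut after they bind a ligand on a neighbouring cell, and the intracellular part moves to the nucleus, where it joins RBPJ and a Mastermind protein to switch on targets of the Hes and Hey families. The Delta ligands (Dll) and Serrate-type ligands (Jag) are membrane proteins, so that a cell can receive signals through its receptors and send them through its ligands. In the embryonic heart the pathway is known for its part in trabeculation and in the formation of valves from endocardium.

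The probes are 60 bases long, and each probe of a gene is named by the position that the array's annotation gives it in the transcript. The sequences below are those of the receptors and Delta ligands that the comparisons turn on, with both probes of *Notch1* and of *Notch2* because the members of each pair gave different readings. All letters are in lower case because no base within a probe was singled out.
Notch1 probe at position 5898 (mm9 chr2:26319440-26319499, whole probe): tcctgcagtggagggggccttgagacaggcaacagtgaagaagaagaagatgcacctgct
Notch1 probe at position 8221 (mm9 chr2:26314630-26314689, first 30 bases): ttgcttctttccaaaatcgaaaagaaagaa
Notch2 probe at position 7448 (mm9 chr3:97951233-97951292, whole probe): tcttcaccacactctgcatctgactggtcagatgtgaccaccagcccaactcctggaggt
Notch2 probe at position 10129 (mm9 chr3:97953914-97953973, first 30 bases): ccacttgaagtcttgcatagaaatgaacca
Notch3 probe at position 7873 (mm9 chr17:32257848-32257907, first 30 bases): gcctaatagaaatgtttttaggctgttttt
Notch4 probe at position 6235 (mm9 chr17:34725120-34725179, first 30 bases): gttgatttcgagaatccctaaactctggaa
Dll1 probe at position 3063 (mm9 chr17:15504623-15504682, first 30 bases): gattactatgagccagtctttccttgaact
Dll4 probe at position 2827 (mm9 chr2:119160779-119160838, first 30 bases): tttgcccagactccatcctcacagctgggc
The other probes lie at chr2:136907433-136907492 for *Jag1*, chr12:114146887-114146946 for *Jag2* and chr5:54048503-54048562 for *Rbpj*. A second *Rbpj* probe, at position 1682, is placed by the annotation on chr6:46479373-46479432 although it carries the accession of *Rbpj*. RefSeq lists *Rbpj* itself on chromosome 5 and the pseudogene *Rbpj-ps3* on chromosome 6, so a signal of this probe could not be assigned to one locus, and it is shown for that reason.
Rbpj probe at position 1682 (mm9 chr6:46479373-46479432, whole probe): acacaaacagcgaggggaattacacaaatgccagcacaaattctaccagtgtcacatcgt

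Levels are scaled signals. Arrays were brought to a common 50th percentile over the probes detected on every array, a floor of 50 was set and levels were put on the log2 scale, so that the lowest level is 5.64. "Well above background" is the scanner software's own call on a probe, which can be met by a signal under that floor, and a level at the floor does not show that a transcript was absent from the cell. The software called from 11370 to 18175 probes well above background in WT cells and from 12781 to 16853 in KO cells. The array of WT cell 1, which had the lowest number, had been marked for evaluation by the software. WT and KO cells lay in separate columns of 1 slide, so position and genotype cannot be told apart. Neither *Sox17* probe was detected above background by the software in any cell, with scaled signals from 1.09 to 6.18, and whether they lie in the deleted part is not given, so that they check neither the labels nor the deletion. Of 10 endocardial or endothelial markers, from 7 to 10 were well above background in WT cells and from 6 to 9 in KO cells. Of 9 cardiomyocyte markers, from 4 to 8 were well above background in WT cells and from 3 to 7 in KO cells, and their summed scaled signal ran from 375 to 46300 and from 822 to 48700. Their part in the levels of the Notch genes was not tested. The 2 genotypes overlapped on both lists, and 5 blood and 5 endoderm markers were at the floor throughout.

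Among the members, *Notch3* differed most between the WT and KO cells. It was above the floor in all 4 WT cells and in 1 of 4 KO cells. It was the only member whose cells did not overlap between genotypes, and they did overlap after quantile normalization. Of all genes, 0.141% had all KO cells below all WT cells and 0.647% had them above. The mean log2 level of *Notch3* was 12.37 in WT and 6.77 in KO cells, a difference of -5.60 beside an SD between cells of 2.04. By their probes with the highest mean, the other receptors, *Notch1*, *Notch2* and *Notch4*, had 1 KO cell each above the floor and differed by less than the SD. *Dll4*, a ligand known from arterial endothelium, was above the floor in 2 WT and 3 KO cells and differed by 0.16 (SD 1.92).

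**Figure D1:**
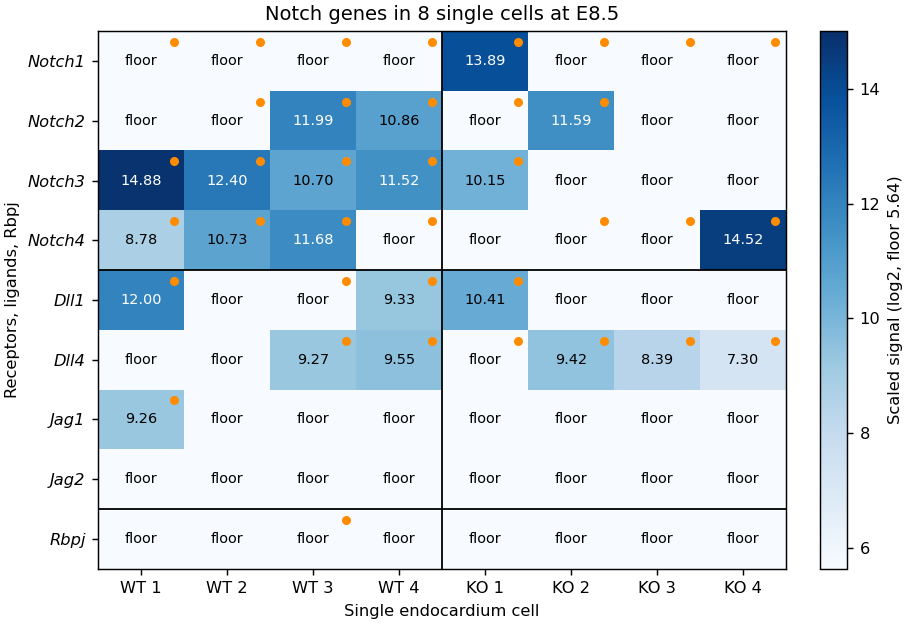
Log2 scaled signal of each Notch gene (rows, by the probe with the highest mean) in each of the 8 cells (columns), with orange dots where the probe was well above background and "floor" for values set to 5.64. *Notch3* stands above the floor in all 4 WT cells and in KO cell 1, while *Jag2* and *Rbpj* are at the floor in all 8 cells.

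Among the receptors, *Notch3*, known chiefly from vascular smooth muscle and pericytes, had log2 levels of 14.88, 12.40, 10.70 and 11.52 in WT cells 1 to 4. In KO cell 1 it reached 10.15, and it was at the floor in the other 3 KO cells. Before the floor was set, the scaled signals of those 3 cells were 3.77, 1.45 and 4.14, and the probe was not well above background in any of them. The lowest WT cell and the highest KO cell lay 0.55 apart on the log2 scale, so the gap between the genotypes was narrow although the means were far apart. The difference was -6.83 without KO cell 1 and -4.85 without WT cell 1. It ran from -7.35 with a floor of 10 to -4.10 with a floor of 200. After quantile normalization KO cell 1, at 10.58, stood above WT cell 3, at 10.48, and the genotypes overlapped. Of 3 markers of smooth muscle, each cell of both genotypes had 2 well above background, and their summed scaled signal ran from 66.2 to 14400 in WT and from 57.3 to 7720 in KO cells. Their part in the *Notch3* difference was not tested. *Notch3* is on the list of lowered genes that the study drew up from these same cells, so that its difference here is not independent of that choice.

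*Notch4*, a receptor largely restricted to endothelium, had log2 levels of 8.78, 10.73 and 11.68 in WT cells 1 to 3 and was at the floor in WT cell 4. It was at the floor in KO cells 1 to 3 and had its highest level of all cells, 14.52, in KO cell 4. The genotypes therefore overlapped, and the difference of -1.35 was smaller than the SD of 3.66. Without KO cell 4 the difference was -3.58, and without WT cell 3 it was -0.54, so that 1 cell decided its size. Its detection was wider, since all 4 WT cells and KO cells 2, 3 and 4 were well above background.

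*Notch2*, a broadly expressed receptor, was above the floor in WT cell 3 at 11.99, in WT cell 4 at 10.86 and in KO cell 2 at 11.59 by its probe at position 10129. The other 5 cells were at the floor, with WT cell 2 and KO cell 1 still well above background. The difference was -1.40 (SD 3.18), -2.94 without KO cell 2 and -0.26 without WT cell 3. *Notch1*, the main receptor of early endothelium and endocardium, was above the floor in 1 cell, KO cell 1, where its probe at position 5898 gave 13.89. All 8 cells were well above background by that probe, with scaled signals from 10.4 to 34.0 in the other 7. The difference of 2.06 (SD 2.91) rested on KO cell 1, and it was 0 without it.

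**Figure D2:**
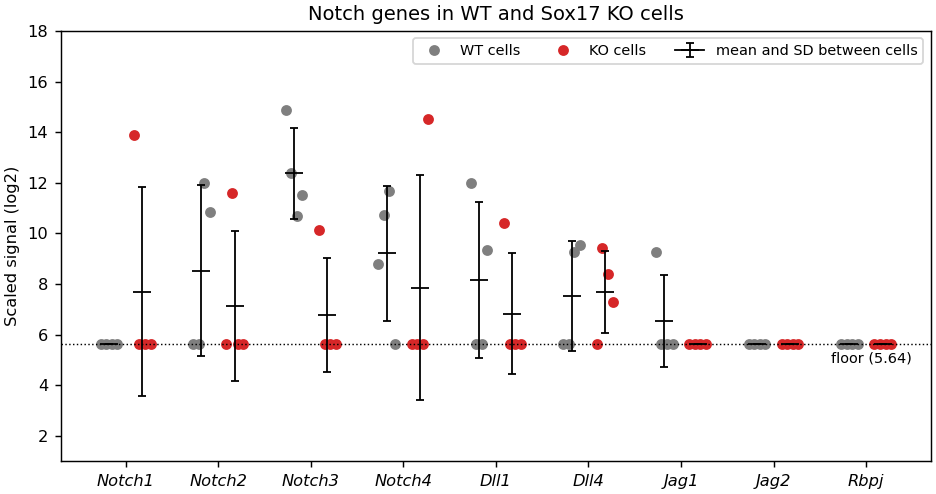
Log2 scaled signal of each Notch gene in WT cells (grey) and *Sox17* KO cells (red), with points for single cells, a bar for the mean, an error bar for the SD between the 4 cells of a genotype and a dotted line at the floor of 5.64. For *Notch3* the lowest WT cell, 10.70, lies above the highest KO cell, 10.15, and every other gene overlaps between genotypes.

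The pairs of probes for *Notch1* and *Notch2* did not read the same cells. The sequences of the *Notch1* pair are given above and start 2323 bases apart in the transcript. In KO cell 1 the probe at position 5898 had a scaled signal of 15131 and the probe at position 8221 had 17.4, which was well above background but under the floor. The *Notch2* probes start 2681 bases apart. The probe at position 7448 was well above background only in KO cell 3, with a scaled signal of 82.4 (6.36 on the log2 scale), while the probe at position 10129 had 1.36 there and was not well above background. The reverse held in WT cells 3 and 4 and in KO cell 2, where the probe at position 10129 was high and the other had scaled signals from 4.35 to 4.76. By the probe at position 7448 alone, with levels floored, the mean of *Notch2* was 1.13-fold higher in KO than in WT cells. No WT cell was well above background, and the value rests on 1 of 4 KO cells. It is not a lower bound, since the other KO cells were raised to the floor as well.

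Such discord was common on these arrays. Of 551 other accessions with 2 probes at least 2000 bases apart and a probe above the floor, the probe nearer the 3' end was above it in more cells for 63.7% and the other probe for 31.6%. Both probes were above the floor in 9.0% of the 1834 pairs of such a gene and a cell in which either was. For *Notch1* and *Notch2* together the count was 0 of the 1 and 4 cells in which a probe was above the floor.

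**Figure D3:**
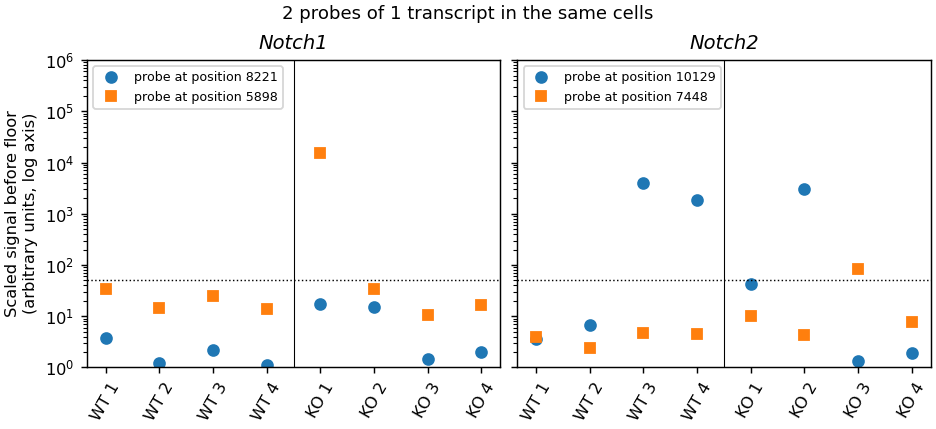
Scaled signal before the floor (arbitrary units, log axis) of the 2 probes of *Notch1* (left) and of *Notch2* (right) in each WT and KO cell, with a dotted line at the floor of 50. No cell lies above the line for both probes of a gene, and KO cell 1 has 15131 for one *Notch1* probe and 17.4 for the other.

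Among the ligands, *Dll4* had log2 levels of 9.27 and 9.55 in WT cells 3 and 4 and of 9.42, 8.39 and 7.30 in KO cells 2 to 4. It was at the floor in WT cells 1 and 2 and in KO cell 1, and the genotypes overlapped. Detection of its probe reached 2 of 4 WT and 4 of 4 KO cells. The sign of its difference was not fixed, since it ran from -0.25 with a floor of 200 to 0.81 with a floor of 10, and from -0.48 to 0.89 over the fits that left out 1 cell.

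*Dll1*, a Delta ligand best known from somites and neural progenitors, had log2 levels of 12.00 in WT cell 1 and 9.33 in WT cell 4, and of 10.41 in KO cell 1. The other 5 cells were at the floor, and WT cell 3 was still well above background with a scaled signal of 34.4. The difference was -1.32 (SD 2.76), -2.56 without KO cell 1 and -0.05 without WT cell 1. *Dll1* was the only member with a probe spotted more than once, and its 8 to 10 usable spots on an array varied with a CV from 2.79% to 27.7%, which covers spotting and hybridization but not the amplification of each cell.

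*Jag1*, a ligand known from endothelium, smooth muscle and valve mesenchyme, was well above background in WT cell 1 alone, at 9.26 on the log2 scale. With levels floored, its mean was 1.87-fold higher in WT than in KO cells, a fold whose size is set by the floor. The value rests on that cell, since without it all cells were at the floor. *Jag2* was well above background in no cell, with scaled signals from 1.09 to 5.43.

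*Rbpj* was at the floor in all 8 cells by both probes, so no fold can be given. The probe on chromosome 5 was well above background only in WT cell 3, with a scaled signal of 13.1, and gave from 1.17 to 4.24 in the other 7 cells. The probe placed on chromosome 6 was well above background in none, with signals from 1.40 to 6.53.

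Receptors and ligands were set side by side within each cell, first by whether they were above the floor. The floor is 1 cutoff for all probes, although the brightness of different probes cannot be compared. The call of well above background is therefore given as well. Above the floor, WT cell 1 had the receptors *Notch3* and *Notch4* with the ligands *Dll1* and *Jag1*. WT cell 2 had *Notch3* and *Notch4* with no ligand. WT cell 3 had *Notch2*, *Notch3* and *Notch4* with *Dll4*, and WT cell 4 had *Notch2* and *Notch3* with *Dll1* and *Dll4*. Each WT cell thus had 2 or 3 receptors above the floor. KO cell 1 had *Notch1* and *Notch3* with *Dll1*, and KO cell 2 had *Notch2* with *Dll4*. KO cell 3 had *Dll4* and no receptor by the probes with the highest mean, and it is the cell in which the inner *Notch2* probe was above the floor. KO cell 4 had *Notch4* with *Dll4*. In KO cells 2 to 4, *Dll4* was the ligand above the floor and no more than 1 receptor was. By the call of well above background, WT cells 2 to 4 had all 4 receptors, and WT cell 1 had *Notch1*, *Notch3* and *Notch4*. KO cell 1 had *Notch1*, *Notch2* and *Notch3*, KO cell 2 had *Notch1*, *Notch2* and *Notch4*, and KO cells 3 and 4 had *Notch1* and *Notch4*. The ligands by this call were *Dll1* and *Jag1* in WT cell 1 and none in WT cell 2. WT cells 3 and 4 and KO cell 1 had *Dll1* and *Dll4*, and KO cells 2 to 4 had *Dll4*.

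By the probes with the highest mean, a receptor and a ligand were above the floor together in 6 of 8 cells, 3 of each genotype. By any probe, KO cell 3 had both as well, *Notch2* with *Dll4*. *Dll1* or *Dll4* was above it in 7 of 8 cells, and both were in WT cell 4 alone. *Notch3* and *Notch4* were above it together in WT cells 1 to 3 and in 0 KO cells. Counted over the 4 receptors and 4 cells of a genotype by the probes with the highest mean, 9 of 16 receptor readings were above the floor in WT and 4 of 16 in KO cells. The ligands had 5 and 4 of 16. The share of all genes above the floor ran from 18% to 23.2% over WT cells and from 20.7% to 22.2% over KO cells. By the call of well above background, the receptors had 15 of 16 (93.8%) in WT and 10 of 16 (62.5%) in KO cells, and the ligands 6 of 16 (37.5%) and 5 of 16 (31.2%). Over all 9 members this call gave 22 detections in WT and 15 in KO cells, and the software's other call, for signals positive and significant over background, gave 24 and 22. The readings of 1 cell share an array, so these counts describe the cells and are not replicates. The share of all genes well above background ran from 25.5% to 39.7% over WT cells and from 28.9% to 37.0% over KO cells.

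Over the 9 members, 1 was at least 5-fold lower in KO cells and 0 were at least 5-fold higher, where 1.85% and 1.83% of all genes passed these folds. The cells of 1 member, again *Notch3*, did not overlap with KO below WT, against 0.141% of all genes, and 0 did with KO above WT, against 0.647%. Of the 9 members 8 were well above background in at least 1 cell, as were 57.0% of all genes, and among such genes the shares were 3.24% lower, 3.22% higher, 0.247% not overlapping with KO below and 1.13% with KO above. The median difference over the 9 members was -0.90, with 5 lower, 2 higher and 2 at 0, while the median over all genes was 0. It rested on single cells, since it was -0.05 without WT cell 1, -0.26 without WT cell 3 and -0.55 without KO cell 3. For the 7 members above the floor in at least 1 cell it was -1.32, beside 0.09 for all 14595 such genes. None of the members was above the floor in all 8 cells, as 23.9% of the genes above it in any cell were, and 64.5% of those genes were above it in 1 to 5 cells, as all 7 members were.

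The other genes of the pathway comprised 55 genes in 7 roles, of which 45 were well above background in at least 1 cell and 17 were at the floor in all. Of these, 1 was at least 5-fold lower and 6 were at least 5-fold higher in KO cells (1.82% and 10.9%, against 1.85% and 1.83% of all genes and 3.24% and 3.22% of those well above background in at least 1 cell), and the median difference was 0. The counts ran from 0 to 3 lower and from 4 to 9 higher over the other settings and with each cell left out in turn, a range added after the data were seen. No share of all genes is given for those settings.

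Among the 8 targets, *Hey1*, a repressor of the Hey family, had log2 levels of 5.64, 5.64, 5.64 and 8.27 in WT cells and of 12.00, 14.61, 13.61 and 12.34 in KO cells. All KO cells lay above all WT cells, with a difference of 6.84 (SD 1.26), and *Hey1* was the only one of the 55 genes whose cells did not overlap, where 0.647% of all genes and 1.13% of those well above background in at least 1 cell had all KO cells above all WT cells. *Nrg1*, a growth factor of the endocardium that signals to cardiomyocytes, had 10.41, 9.75 and 9.05 in WT cells 1, 2 and 4. It was at the floor in WT cell 3 and in all KO cells, a difference of -3.07 (SD 1.50) whose size is set by the floor. Its probe was well above background in 3 WT and 2 KO cells. Of the other targets, *Hey2* differed by 0.37 (SD 2.0), *Hes1* by 0.91 (SD 1.44) and *Efnb2* by 0.70 (SD 2.13). *Nrarp* was well above background in KO cell 4 alone. With levels floored, its mean was 1.75-fold higher in KO cells, a fold whose size is set by the floor. *Heyl* and *Hes5* were at the floor in all cells. Even so, *Heyl* was well above background in 0 WT and 3 KO cells, and *Hes5* in 1 WT and 1 KO cell.

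Among the proteases that cut the receptor, *Psen2*, a catalytic subunit of gamma-secretase, was well above background in 0 WT cells. It had 9.88, 12.93 and 11.07 in KO cells 1, 3 and 4 and was at the floor in KO cell 2. With levels floored, its mean was 18.8-fold higher in KO cells, a fold whose size is set by the floor. *Adam10*, which makes the first cut after ligand binding, differed by -2.28 (SD 3.01). *Furin*, which cleaves the receptor on its way to the surface, was above the floor in all 8 cells and differed by 0.01 (SD 1.87). Among the nuclear partners, *Kat2a*, an acetyltransferase, was at the floor in all WT cells and had 10.17, 12.72 and 12.45 in KO cells 1 to 3. The difference was 4.60 (SD 2.31), and the probe was well above background in 2 WT and 4 KO cells. The Mastermind gene *Maml1* was above the floor in WT cell 4 and KO cell 1, and *Maml2* in no cell.

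Among the genes for sugar transfer to the receptor, the Fringe gene *Rfng* had 7.37 in WT cell 2 and 6.81, 13.96 and 9.60 in KO cells 2 to 4. The difference was 2.93 (SD 2.68), and the probe was well above background in 4 WT and 3 KO cells. Among those for ligand endocytosis, *Epn1* differed by 2.33, less than its SD of 2.90, and both Mind bomb genes, *Mib1* and *Mib2*, were at the floor in all cells. None of the 5 other ligands and of the 10 genes for inhibitors and turnover was at least 5-fold apart.

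**Figure D4:**
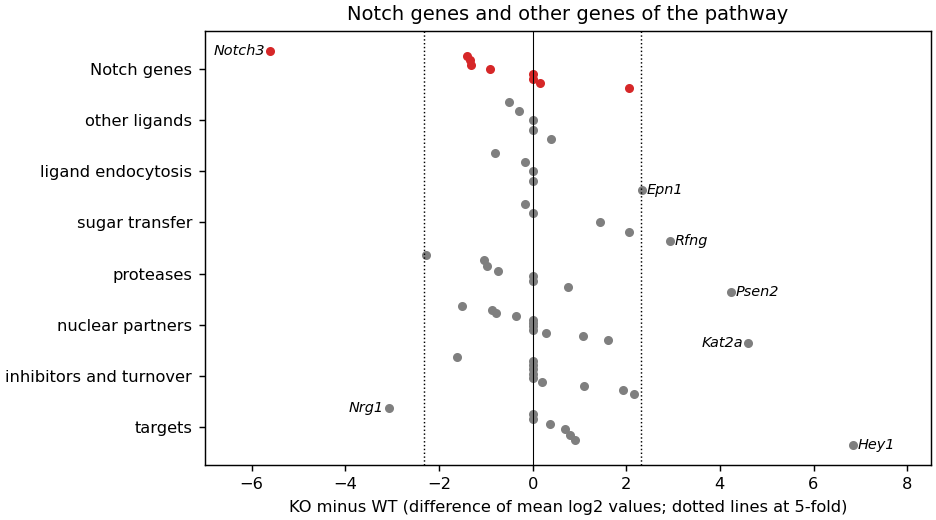
KO minus WT difference of mean log2 levels for the 9 Notch genes (red) and 53 of the 55 other genes of the pathway (grey) by role, with dotted lines at 5-fold. *Notch3* and *Nrg1* lie past the line on the left, and *Epn1*, *Rfng*, *Psen2*, *Kat2a* and *Hey1* lie past it on the right.

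For the 3 members above the floor in at least 4 cells, likeness to other genes was measured by Pearson's r across the 8 cells. The search covered 4523 genes that were above the floor in at least 4 cells and had an SD of at least 1 on the log2 scale. This r is a description, since the cells share genotype and the floor and 4523 genes were searched. *Tubg1* (r = 0.94) and *Numa1* (r = 0.92) were most like *Notch3*. *AI447881* (r = 0.95) and *Scp2* (r = 0.94) were most like *Notch4*. *B4galt5* (r = 0.97) and *Naa15* (r = 0.96) were most like *Dll4*. An r of at least 0.9 was reached by 4, 10 and 13 genes for *Notch3*, *Notch4* and *Dll4*.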

How the data were processed

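Expression was measured on 8 one-colour arrays (Agilent design 028005) of single endocardium cells, 4 WT and 4 *Sox17* KO. The intensity values deposited by the authors are the processed signals of Feature Extraction 12.0.2.2, corrected for background and for trends within each array and not normalized between arrays. Probe positions are those of the deposited annotation (mm9). Control and outlier spots were removed, the remaining spots were averaged by probe, and 386 of 55681 probes were dropped for want of a usable spot on every array. No probe was saturated. A probe was well above background when over 50% of its spots were. Arrays were scaled to their 50th percentile over the 7570 probes that all arrays detected, then floored at 50, and log2 was taken. The probe with the highest mean stood for a gene. Names came from RefSeq (GRCm38.p6) through the accession for 28131 probes. The number of arrays limits the precision.

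The members are named in full. Other pathway genes are named where they were at least 5-fold apart or did not overlap, and the other targets, *Furin*, *Adam10*, *Maml1*, *Maml2*, *Mib1* and *Mib2* were named after their values were seen. Of these pathway genes, 2 are counted but not reported singly here. For members above the floor in 4 cells or more, the 2 genes with the highest r and an SD of at least 1 are named. The members and lists were chosen with earlier results of these data known. Alternatives were the 75th percentile, the floor before scaling, quantile normalization, floors of 10 and 200, normexp (offset 50) without a floor, the mean of probes, other detection calls, and leaving out each cell. The steps were tested on simulated data. The software was R 4.3.3 with limma 3.58.1, and Python 3.11.15 with pandas 2.3.3, numpy 2.4.6 and matplotlib 3.10.9.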

Additional observations from a re-analysis of the deposited data

Results flagged for a closer look

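In 10 of 24 groups of 4 cells with any spread, the highest cell stood apart from the other 3 by more than Dixon's critical value for 4 samples allows (as the gap to the nearest cell over the group's range). Chance alone gives about 1 in 20 groups, and in 9 of the 10 the other 3 cells were at the floor, which makes the ratio 1.0 by construction. The ratio was 1.0 for KO cell 1 in *Notch1* (13.89 on the log2 scale), *Notch3* (10.15) and *Dll1* (10.41). It was 1.0 for KO cell 2 in the *Notch2* probe at position 10129 (11.59), for KO cell 3 in the *Notch2* probe at position 7448 (6.36) and for KO cell 4 in *Notch4* (14.52). It was 1.0 for WT cell 1 in *Jag1* (9.26), WT cell 2 in *Rfng* (7.37) and WT cell 4 in *Hey1* (8.27), and 0.84 for WT cell 3 in *Epn1* (10.30). The high KO cells of the receptors were thus 4 different cells, and KO cell 1 was the high cell for 3 of the members. KO cell 1 had the fewest endocardial or endothelial markers well above background, 6 of 10. It also had the highest summed cardiomyocyte signal, 48700, with WT cell 2 next at 46300. WT cell 2 had 8 of 9 cardiomyocyte markers well above background. The count of KO cell 1, 5 of 9, lay within the range of the other cells. The part of these markers in its Notch levels was not tested.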

How the results depend on the processing

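The count of Notch genes at least 5-fold apart was 1 (*Notch3*). With a floor of 10 it was 2 (*Notch3* and *Dll1*), and with each cell left out in turn it ran from 1 to 3. It was 3 without KO cell 2 (*Notch1*, *Notch2* and *Notch3*) and without KO cell 4 (*Notch1*, *Notch3* and *Notch4*). It was 2 without WT cell 1, WT cell 4, KO cell 1 or KO cell 3. *Notch3* was among them each time. No share of all genes is given for these settings, so these counts do not set the Notch genes apart from other genes. The count of genes whose cells did not overlap was 1, and 0 after quantile normalization. The median over the members stayed below 0, from -1.46 with a floor of 10 to -0.35 with a floor of 200, and from -0.91 to -0.05 with a cell left out. Detections were 22 in WT and 15 in KO cells, and 22 and 16 when any probe of a gene counted. They were 24 and 22 by the software's other call, for signals positive and significant over background. Of 135 recomputed differences of single members, 132 moved by no more than the SD between cells. The others, of *Jag2* and *Rbpj*, which are at the floor, moved to between -0.20 and -0.07. This count does not measure stability, since leaving out 1 of 4 cells cannot move a difference by more than that SD. The *Notch1* difference, 2.06 with all cells and 0 without KO cell 1, is among those counted as within the SD. Among genes well above background in all 4 cells of a genotype, a filter that a gene can pass through the genotype where it is high, the shares were 3.56% lower, 4.56% higher, 0.589% not overlapping with KO below and 2.71% with KO above. No paired analysis was possible because the results come from no test and the cell numbers do not pair WT with KO cells. With 1 sample per genotype, differences between embryos and between genotypes cannot be told apart, and signals under the floor have no order.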
